A study of Mus musculus with 18 samples.

Results

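The stromal-vascular fraction (SVF) of brown fat was set against the SVF of inguinal fat, which took in 6 of the 18 arrays of the study, 3 from each depot. The SVF is what pellets when fat is digested and the floating adipocytes are taken off. It holds the cells that line and wrap blood vessels, fibroblasts and adipocyte progenitors, nerve-associated cells and leukocytes. Both groups came from young adult C57BL/6 mice labelled male, and neither carried a transgene or received a treatment named in the labels. The interscapular brown and the inguinal subcutaneous pads were both minced and digested with collagenase type II, the pellets were treated with erythrocyte lysis buffer, and the cells were passed through a cell strainer before RNA was extracted. The labels call the replicates biological triplicates and do not say whether 1 replicate is 1 mouse or a pool, so p-values measure the spread between these samples. The other 12 arrays hold epididymal SVF and the adipocyte fractions of the 3 depots, and they enter below for the estimate of spread and for a comparison of fractions. The arrays were chosen by their titles, not by any measured value.

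Brown fat burns lipid to make heat through Ucp1, a mitochondrial protein that uncouples respiration from ATP synthesis, whereas inguinal fat is a white depot that can take on part of this programme. The depots lie at different levels of the body axis, and their cells keep the transcription factors of that position, such as the Hox genes, into adult life. Vessel walls hold smooth muscle cells and pericytes, whose contraction depends on actin, myosin and calponin. Levels are given as log2 signal minus the log2 of the 75th percentile signal of the same array, so that 0 is a bright probe. Values near -8 are at the floor, and higher values can also be background. Myl2, for example, at -5.75, -5.95 and -5.42, was not well above background on any inguinal SVF array. A difference is always brown minus inguinal SVF on this scale, with its standard error (SE).

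The markers of the depots stood on the side their labels call for. Zic1, a zinc finger factor of dorsal mesoderm that marks brown fat, had levels of 0.95, 1.52 and 1.20 in brown SVF replicates 1 to 3 and of -6.29, -3.68 and -7.19 in inguinal SVF. Hoxc9, a Hox gene of the posterior trunk, had -5.60, -4.99 and -4.02 in brown and 1.93, 1.46 and 0.46 in inguinal SVF. The groups did not overlap for either gene. A pair of inguinal libraries stood apart from their own group, however. The library labelled inguinal SVF 1 alone among the 18 arrays had signal for Xist, the RNA of the inactive X chromosome (4.98, against at most -4.57 elsewhere), and the Y-linked Ddx3y was at -6.50 there against at least 0.18 elsewhere, which goes against its male label. The mesothelial genes Wt1 and Msln were at 4.45 and 6.16 there, and the median of the mesothelial list was 3.51 in that library against -6.06 and -6.48 in the other inguinal arrays and -5.00 to -4.52 in brown SVF. The library labelled inguinal SVF 3 was rich in lymphocyte transcripts. The median of its B cell list was 3.10 against -3.55 and 0.33 in the other inguinal arrays, and Ptprc, the pan-leukocyte CD45, was at 5.57 against 0.61 and 2.94. Correlations between arrays over all genes were 0.966 to 0.976 among brown and 0.878 to 0.938 among inguinal SVF arrays, and the median SD of a gene was 0.32 and 0.56. Spots well above background made up 56.5 to 72.2% of the 6 arrays. Results are therefore given with and without inguinal SVF 1 and 3.

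Of 19291 genes tested, 457 differed between the depots (limma, Benjamini-Hochberg adjusted p under 0.05), which is 2.37% of the genes. Brown SVF was higher for 362 of them (1.88%) and inguinal SVF for 95 (0.492%), against a median difference over all genes of 0.02. For 456 of the 457 the 3 brown and the 3 inguinal arrays did not overlap. This held for 18.4% of all genes (11.2% with brown and 7.16% with inguinal SVF on top). In simulated data the same fit called 183 unchanged genes with the spread measured in each group, against 14 with equal spread. The measured spread came from 3 arrays per group, which can exaggerate how unequal it is. The 183 is therefore no estimate of the false calls among the 457, which may still exceed what the threshold states. Without inguinal SVF 1 the test called 537 genes, 326 of them among the 457, and without inguinal SVF 3 it called 313, with 233 shared. A total of 202 genes were called in all of these fits, 174 higher in brown and 28 higher in inguinal SVF, and 131 genes kept their call whichever 1 of the 6 libraries was left out. The count was 175 without brown SVF 1, 196 without brown SVF 3 and 773 without inguinal SVF 2. The count depends on the spread being shared with the other 12 arrays: fitted with the 6 arrays alone, only Ucp1 (adjusted p = 0.0309) and Cd209b (adjusted p = 0.0313) were called by limma, although 2057 genes had an unadjusted p under 0.05. Background correction by normexp also moved the split, to 521 higher and 1072 lower in brown, with the median of all genes shifted to -0.34. A repaired normexp, chosen after seeing the data, left out 22 probes far below background. It gave 324 higher and 121 lower in brown, with a median of -0.11. On the first scan day each depot lay on a slide of its own, so that slide and depot cannot be told apart there, while another slide held 1 brown and 1 inguinal array. With slide as a block, fitted to the SVF and brown adipocyte arrays only, 476 genes were called, 223 of them among the 457. Of 83 called genes chosen by rank or as list examples, 56 kept their call. For a call lost in this fit, the block and the smaller number of arrays cannot be told apart. Losses are given beside most of the genes named below.

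Genes of the brown adipocyte led the comparison although the floating cells had been removed. Ucp1 had levels of 3.64, 4.50 and 4.30 in brown and -6.02, -4.08 and -6.26 in inguinal SVF. Every brown array was far above every inguinal one, and Ucp1 was well above background on only 1 of the 3 inguinal arrays. The difference of 9.60 ± 1.56 (adjusted p = 0.00477) was 9.32 without inguinal SVF 1, 9.19 without inguinal SVF 3 and 10.56 on the shared slide. It was 7.41 in the deposited matrix, 7.06 with repaired normexp and 5.81 with normexp, and was called in each. Cidea, a lipid droplet protein of brown fat, had 4.89, 6.75 and 6.70 in brown against -2.95, 0.14 and -1.19 in inguinal SVF, a difference of 7.44 ± 1.01 (adjusted p = 0.00142). The groups were separated by more than the range within either. Of the thermogenic list, 12 of 20 genes were higher in brown SVF, against 1.88% of all genes, and none was lower. The list median was 3.00, or 2.88 with genes below background at their bounds. It was 2.70 to 3.05 when inguinal SVF 3 or 1 was left out. Then 8 and 10 genes were called, against 1.04% and 2.13% of all genes. The list was drawn up with earlier results of these data known, as were all the lists below, so its direction is not independent evidence.

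Within the list the mitochondrial genes Cox8b and Cox7a1, isoforms of cytochrome oxidase subunits of muscle and brown fat, differed by 4.62 ± 0.72 (adjusted p = 0.00373) and 4.54 ± 0.80 (adjusted p = 0.00784). Regulators of the programme differed by less. Ppara, a nuclear receptor for fatty acids, was at -0.52, 0.70 and 0.02 in brown and -2.48, -2.69 and -5.00 in inguinal SVF (3.46 ± 0.59). Dio2, the deiodinase that makes active thyroid hormone, differed by 3.02 ± 0.43 and the potassium channel gene Kcnk3 by 3.04 ± 0.41, both with inguinal arrays close together (-4.94 to -5.03 for Dio2 and -1.91 to -1.97 for Kcnk3). With normexp the difference of Dio2 was 0.21 (adjusted p = 0.803) and that of Ppara 1.69 (adjusted p = 0.0608), and in the deposited matrix that of Dio2 was 1.66. With repaired normexp Dio2 differed by 1.51 (adjusted p = 0.027) and Ppara by 2.43 (adjusted p = 0.00405). Prdm16, a factor that holds brown adipocyte fate, differed by 1.57 ± 0.35 (adjusted p = 0.0264), and its call was lost without inguinal SVF 3 (1.30, adjusted p = 0.0916). Slc27a2, a long-chain acyl-CoA synthetase (4.82 ± 1.07), and Cpt1b, which lets fatty acids into mitochondria (2.99 ± 0.73), were called with all arrays and in neither fit without inguinal SVF 1 (adjusted p = 0.0703 and 0.0538) or 3 (adjusted p = 0.102 and 0.124). Slc27a2 was not called with slide as a block either (adjusted p = 0.0566). The nuclear-encoded respiratory chain list as a whole had no called gene among 25, with a median of 0.78 and 18 genes whose groups did not overlap in favour of brown, against 11.2% of all genes.

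The genes shared by all adipocytes leaned the same way, with 3 of 20 called against 1.88% of all genes. All 20 had a positive difference, with a median of 1.46, or 1.59 and 1.15 without inguinal SVF 1 or 3. For 9 of them the groups did not overlap with brown on top, against 11.2% of all genes. Adipoq, the adiponectin gene, had 3.15, 7.16 and 4.42 in brown and 2.32, 3.48 and 0.65 in inguinal SVF. The groups overlapped, and the difference of 2.76 ± 0.84 did not pass (adjusted p = 0.101). Of the mature adipocyte list, 3 of 20 genes were higher in brown SVF: Gpd1, which makes glycerol phosphate for triglycerides (4.13 ± 0.73), Dgat2, an acyltransferase of triglyceride synthesis (3.93 ± 0.89), and Slc2a4, the insulin-responsive glucose transporter (2.96 ± 0.48). The call of Dgat2 was lost without inguinal SVF 1 or 3 (adjusted p = 0.0767 and 0.101) or with slide as a block (adjusted p = 0.0805). The list medians were 3.10, 5.47 and 3.86 in brown against 0.93, 2.60 and 0.32 in inguinal SVF, so that replicate 2 had the highest median in each depot. The part of adipocyte RNA in the thermogenic result was not tested. In these bulk samples fewer cells of a type and less RNA per cell cannot be told apart.

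**Figure D1:**
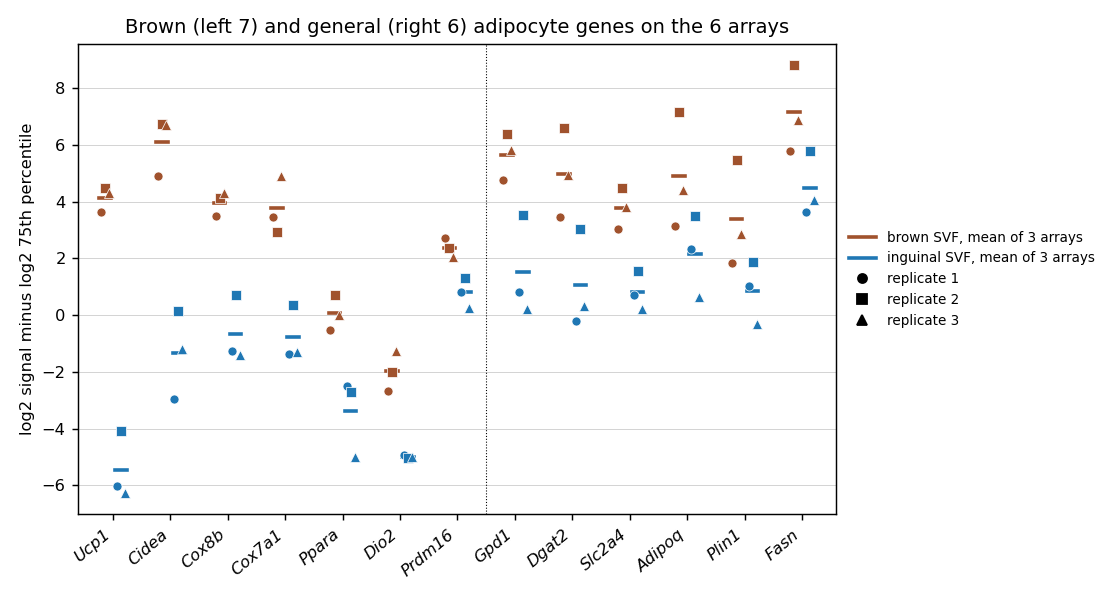
Levels of 7 brown and 6 general adipocyte genes in each of the 6 arrays (points, shaped by replicate; bars, mean of 3 arrays; y axis, log2 signal minus the log2 75th percentile). The brown genes do not overlap between depots, whereas Adipoq does, with 3.15 in brown SVF 1 and 3.48 in inguinal SVF 2.

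The contractile genes of smooth muscle were higher in brown SVF as a group. Cnn1, calponin of smooth muscle, had 3.02, 2.91 and 3.70 in brown and 1.03, -1.47 and -0.73 in inguinal SVF. Each brown array was above each inguinal one, and the inguinal library nearest to brown was replicate 1. The difference was 3.60 ± 0.60 (adjusted p = 0.00565), a 12.1-fold higher signal, and it was 4.31 without inguinal SVF 1, 3.43 without inguinal SVF 3 and 4.43 on the shared slide. With slide as a block it was 4.14 and not called (adjusted p = 0.0581). Acta2, the smooth muscle actin, was at 6.72, 6.63 and 6.84 in brown and 4.45, 3.79 and 3.46 in inguinal SVF (2.83 ± 0.45, adjusted p = 0.00423). Myh11, the smooth muscle myosin heavy chain, was at 4.29, 4.32 and 4.50 against 1.38, 1.56 and 1.20 (2.99 ± 0.35, adjusted p = 0.000636). For both genes the spread within each depot was small beside the gap.

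Of the 19 contractile genes tested, 11 were higher in brown SVF, against 1.88% of all genes, and none was lower. A total of 14 did not overlap with brown on top, against 11.2% of all genes. The median difference of the list was 1.96 (1.86 with genes below background at their bounds), or 2.28 without inguinal SVF 1 and 1.73 without inguinal SVF 3, and 10 of the 11 kept their call whichever library was left out. The exception was Tagln, an actin-binding protein (1.86 ± 0.40), with an adjusted p of 0.0852 without inguinal SVF 3 and of 0.0663 with slide as a block. Pln, the inhibitor of the calcium pump of the sarcoplasmic reticulum, had the largest difference (4.07 ± 0.56, adjusted p = 0.00146) and was above background on only 1 inguinal array. Myocd, the coactivator that switches on contractile genes through serum response factor, was at -0.75, -0.99 and -0.37 in brown against -2.40, -3.13 and -5.22 in inguinal SVF (2.89 ± 0.52, adjusted p = 0.00898). Myl9, Lmod1, Mylk and Ppp1r14a differed by 1.96 to 2.28. Kcnmb1, a potassium channel subunit, was not above background on any inguinal array (at least 1.29-fold higher in brown, adjusted p = 0.00675), and its difference had the opposite sign with normexp. With normexp Pln (0.59) and Myocd (1.02) were not called. With repaired normexp Pln (1.88, adjusted p = 0.000948) and Myocd (1.83, adjusted p = 0.00562) were called and Kcnmb1 (0.33, adjusted p = 0.616) was not. Members without a call included Des, the intermediate filament desmin, at 0.08 (adjusted p = 0.937) and Synpo2 at -0.64 (adjusted p = 0.304).

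Serum response factor acts with the Myocd product at a motif known as the CArG box, so the promoters of the list were read for it. The match required the motif's outer bases and allowed at most 1 G or C among the 6 inner ones. The motif is its own reverse complement, so a match on one strand is a match on both. Of the 20 list genes, 15 have 18 RefSeq promoters among them (build GRCm38.p6), and in the 250 bases before the start 3 of the 18 held a match, against 8.59% of 32851 promoters. A match without the mismatch was found in 1 of the 18, that of Myl9, against 1.47% of promoters. The promoters of Myl9, Acta2 and Cnn1 are shown because all are called genes and they differ in this motif. They lie at chr2:156775214-156775463 on the plus strand, chr19:34255374-34255623 on the minus strand and chr9:22099003-22099252 on the plus strand, and capitals mark the matches, which begin 161 and 99 bases before the start of Myl9 and 84 and 34 before that of Acta2. No match in a window says only that these letters are not in it.
Myl9: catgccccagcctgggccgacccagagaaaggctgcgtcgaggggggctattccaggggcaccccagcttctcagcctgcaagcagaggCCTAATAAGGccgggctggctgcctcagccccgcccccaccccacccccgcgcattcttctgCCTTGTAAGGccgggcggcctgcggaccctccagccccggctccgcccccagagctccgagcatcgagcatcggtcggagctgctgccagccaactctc
Acta2: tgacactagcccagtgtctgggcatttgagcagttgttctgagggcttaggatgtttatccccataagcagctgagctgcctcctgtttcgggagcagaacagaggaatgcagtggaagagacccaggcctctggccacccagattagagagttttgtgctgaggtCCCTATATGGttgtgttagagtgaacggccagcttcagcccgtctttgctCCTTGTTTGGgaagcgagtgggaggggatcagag
Cnn1: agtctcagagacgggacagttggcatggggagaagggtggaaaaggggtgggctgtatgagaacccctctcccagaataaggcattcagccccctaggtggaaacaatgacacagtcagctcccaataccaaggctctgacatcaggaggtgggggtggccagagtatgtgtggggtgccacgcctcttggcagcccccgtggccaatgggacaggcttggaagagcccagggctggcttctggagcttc

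Pericytes, the mural cells of capillaries, followed the same direction. Cspg4, the NG2 proteoglycan of pericytes, had 2.07, 2.43 and 2.05 in brown and -0.57, -0.16 and -0.58 in inguinal SVF (2.62 ± 0.34, adjusted p = 0.000904). Heyl, a target of Notch signalling in mural cells, had 2.91, 2.37 and 3.02 against 0.30, 0.92 and -0.36 (2.48 ± 0.30, adjusted p = 0.000747). Neither gene overlapped between depots. Of 13 pericyte genes tested, 7 were higher, against 1.88% of all genes, and none lower, with a median of 1.67. The Notch receptor gene Notch3 differed by 1.70 ± 0.25 (adjusted p = 0.00247) and the endothelin receptor gene Ednra by 1.42 ± 0.32 (adjusted p = 0.0288). Cspg4, Heyl and Notch3 kept their calls whichever library was left out. The number called was 6 without inguinal SVF 1 and 3 without inguinal SVF 3, against 2.13% and 1.04% of all genes.

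**Figure D2:**
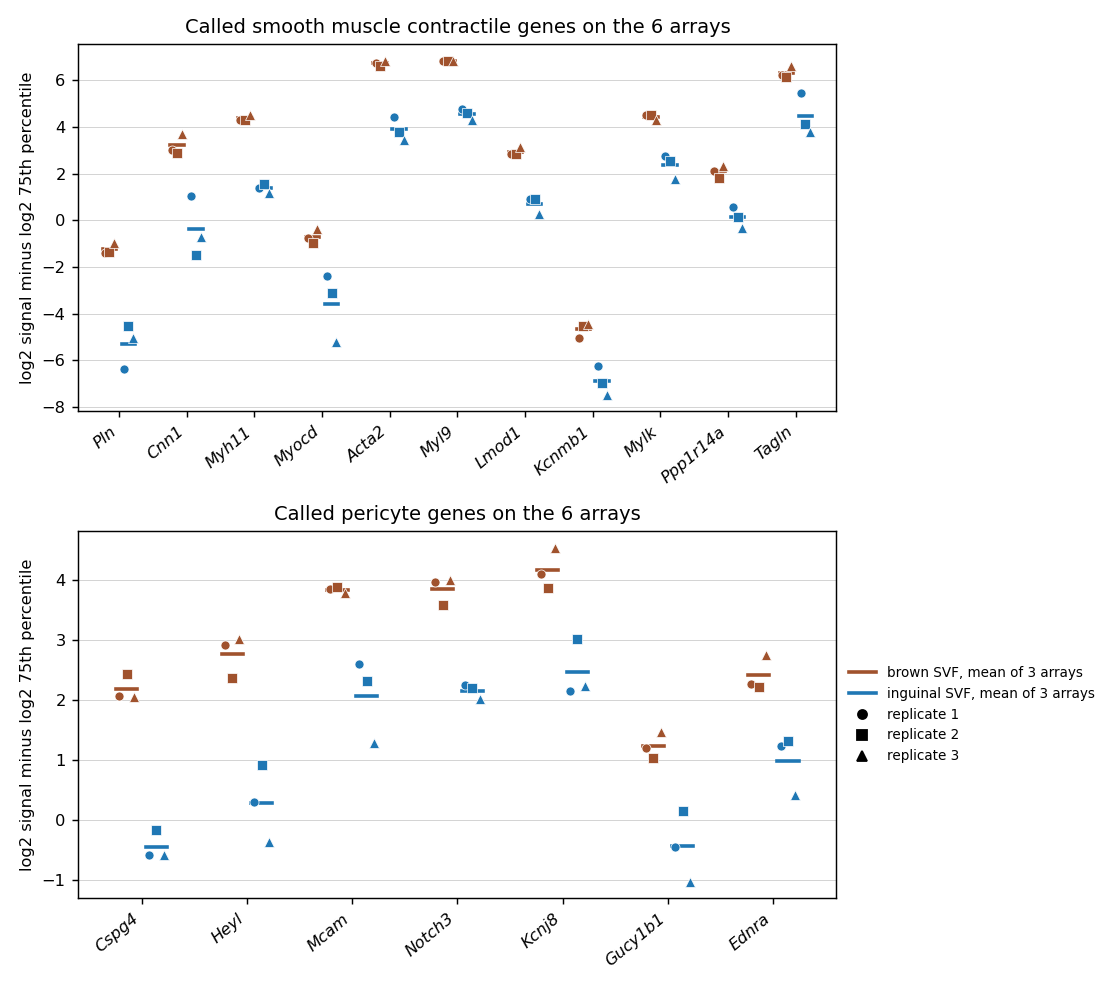
Levels of the 11 called smooth muscle genes (top) and 7 called pericyte genes (bottom) on the 6 arrays (points, shaped by replicate; bars, mean of 3 arrays; y axis, log2 signal minus the log2 75th percentile). Brown arrays lie above inguinal arrays for each gene shown, with Tagln the closest among the smooth muscle genes (6.16 in brown SVF 2 and 5.47 in inguinal SVF 1).

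Endothelial genes leaned the same way with smaller differences. Tie1, a receptor tyrosine kinase of endothelium, had 3.87, 2.42 and 3.01 in brown and 1.32, 1.28 and 0.74 in inguinal SVF (1.99 ± 0.35, adjusted p = 0.00785). Pecam1, the adhesion molecule CD31, had 3.50, 2.46 and 2.68 against 1.40, 1.53 and 0.47, and its difference of 1.75 ± 0.50 did not pass (adjusted p = 0.084). All 17 endothelial genes had a positive difference, 3 of them called (Tie1, Egfl7 and Flt1) against 1.88% of all genes, and the median was 1.18. Without inguinal SVF 3, the lymphocyte-rich library, the median was 0.86 and Tie1 alone was called. Of 7 lymphatic endothelial genes, 2 were higher in brown SVF, against 1.88% of all genes. They were Flt4, the receptor for VEGF-C (1.52 ± 0.28, adjusted p = 0.00935), and Foxc2, a factor of lymphatic valves (1.20 ± 0.28, adjusted p = 0.0328). Neither call was kept whichever library was left out, and with normexp both signs turned (-0.068 and -0.29). With repaired normexp the differences were 0.75 and 0.63 and not called (adjusted p = 0.168 and 0.158). Tie1 (adjusted p = 0.0526), Egfl7 (adjusted p = 0.0944) and Foxc2 (adjusted p = 0.33) were not called with slide as a block.

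Red cell transcripts were higher in brown SVF, although both pellets had gone through erythrocyte lysis. Hba-a1, an alpha globin, had 8.02, 7.58 and 8.18 in brown and 5.95, 5.50 and 4.95 in inguinal SVF (2.46 ± 0.37, adjusted p = 0.00323). Alas2, the first enzyme of haem synthesis in red cells, had 3.35, 2.99 and 3.97 against 1.11, 0.71 and 0.37 (2.71 ± 0.40, adjusted p = 0.00247). Neither overlapped. All 4 of the erythroid genes tested were called (the others are Hbb-bt and Slc4a1), against 1.88% of all genes. The list held 8 genes, and the globin genes have near-identical copies that the probes may not separate. Hbb-bt (adjusted p = 0.0745) and Slc4a1 (adjusted p = 0.0639) were not called with slide as a block. The calls were 3 of the 4 without inguinal SVF 1 and 3 without inguinal SVF 3, against 2.13% and 1.04% of all genes. The part of residual blood in the vascular result was not tested.

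Genes of Schwann cells, which ensheathe peripheral nerves, were also higher in brown SVF. Gfra3, a receptor of the GDNF family, had 1.69, 0.60 and 1.23 in brown and -1.07, -1.22 and -1.35 in inguinal SVF (2.38 ± 0.40, adjusted p = 0.00553). Sox10, the lineage factor of Schwann cells, had -0.72, -1.57 and -1.18 against -3.24, -3.05 and -2.58 (1.80 ± 0.35, adjusted p = 0.0131). Mal, a protein of myelin (2.38 ± 0.46), and Prx, periaxin (1.64 ± 0.35), were higher too. In all, 5 of 13 genes of the list were higher, against 1.88% of all genes, with a list median of 1.23. All 5 were called without inguinal SVF 1 and 4 without inguinal SVF 3, but brown SVF 1 carried the most of this RNA and leaving it out ended the calls of 4, Gfra3 being the exception. Gfra3, Sox10, Mal and Prx were not called with slide as a block (adjusted p = 0.0834, 0.0704, 0.084 and 0.0735). With normexp the differences of Sox10 and Mal were 0.19 and 0.12 and not called. With repaired normexp they were 1.11 (adjusted p = 0.0538) and 1.24 (adjusted p = 0.0346). The one gene called in the other direction was Mbp, myelin basic protein (-2.24 ± 0.34, adjusted p = 0.00326), and here the probes disagreed: the other two Mbp probes gave 1.79 and 1.90. Which Mbp transcript each probe reads was not tested, so no direction is given for the gene.

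Genes of posterior and hindlimb position were higher in inguinal SVF. Hoxc9 differed by -6.15 ± 0.44 (adjusted p = 8.86e-06), with -5.83 and -6.56 when inguinal SVF 1 or 3 was left out and -4.48 on the shared slide. Hoxc9 differed by -4.46 in the deposited matrix, -4.40 with repaired normexp and -4.08 with normexp, and was called in each. Its neighbour Hoxc10 had -1.12, -2.41 and -3.64 in inguinal SVF and stayed at background in brown SVF (-7.85, -8.09 and -7.95), a signal at least 10.8-fold higher in inguinal SVF (adjusted p = 7.25e-05). Such bounds compare the brighter group with the lowest signal that counts as above background, and they hold for the processed signal used here. Hoxa10 had 1.14, -1.35 and -2.99 in inguinal and -7.68 to -7.85 in brown SVF, at least 27.1-fold (adjusted p = 0.000329). Pitx1, a hindlimb factor, had -0.79, -2.88 and -3.35 in inguinal and -6.89, -8.07 and -8.05 in brown SVF, at least 11.2-fold (adjusted p = 0.000717). In the deposited matrix the log2 differences of Hoxc10, Hoxa10 and Pitx1 were smaller than these bounds, at -1.86, -2.89 and -1.97, and were called. In these 3 genes the library labelled inguinal SVF 1 was the highest, and all of them, like Hoxc9, kept their calls without it or any other library.

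Other Hox genes did not separate the depots in this way. Of 15 genes of Hox groups 6 to 13, 3 were higher in inguinal SVF, against 0.492% of all genes, and none in brown. The list median of -0.80 became 0.03 without inguinal SVF 1. Without inguinal SVF 3 it was -1.43, with 5 genes higher in inguinal SVF against 0.581% of all genes. Hoxa9, for example, had 0.84 in the library labelled inguinal SVF 1 against -1.79 and -3.91 in the other inguinal arrays. In brown SVF it had -2.73 to -3.05 (difference -1.28, adjusted p = 0.43). Of the 12 genes of groups 1 to 5, 1 was higher in brown SVF, against 1.88% of all genes, and all 12 had a positive difference. The called gene was Hoxa4 (-0.44, -0.81 and -0.49 against -1.83, -2.53 and -3.91, a difference of 2.18 ± 0.46 with adjusted p = 0.0211). The call of Hoxa4 was lost without inguinal SVF 3 (adjusted p = 0.0634) and with normexp (0.93, adjusted p = 0.15). It was kept with repaired normexp (1.54, adjusted p = 0.0165).

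Among 20 further patterning factors, Zic1 and Tbx5 were higher in brown and Pitx1 in inguinal SVF, against 1.88% and 0.492% of all genes. Zic1 differed by 6.94 ± 1.07 (adjusted p = 0.00355), with 8.39 on the shared slide, and only 1 inguinal array was above background for it. The difference of Zic1 was 4.40 in the deposited matrix, 4.01 with repaired normexp and 2.80 with normexp, and was called in each. Tbx5, a T-box factor of the heart and forelimb, had 1.10, 0.85 and 0.46 in brown and -4.23, -0.72 and -2.65 in inguinal SVF (3.34 ± 0.69, adjusted p = 0.0187), and its call was lost without inguinal SVF 3 (adjusted p = 0.0581) and with slide as a block (adjusted p = 0.165). Tbx15, a T-box factor tied to adipocyte depots, had -1.04, -0.22 and -0.05 in brown against -5.15, 1.30 and -1.41, so that inguinal SVF 2 was above and inguinal SVF 1 far below every brown array (1.31, adjusted p = 0.557). Tcf21, a factor of visceral fat and mesothelium, was at 0.57 in the library labelled inguinal SVF 1 and at -6.72 and -5.07 in the other inguinal arrays.

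**Figure D3:**
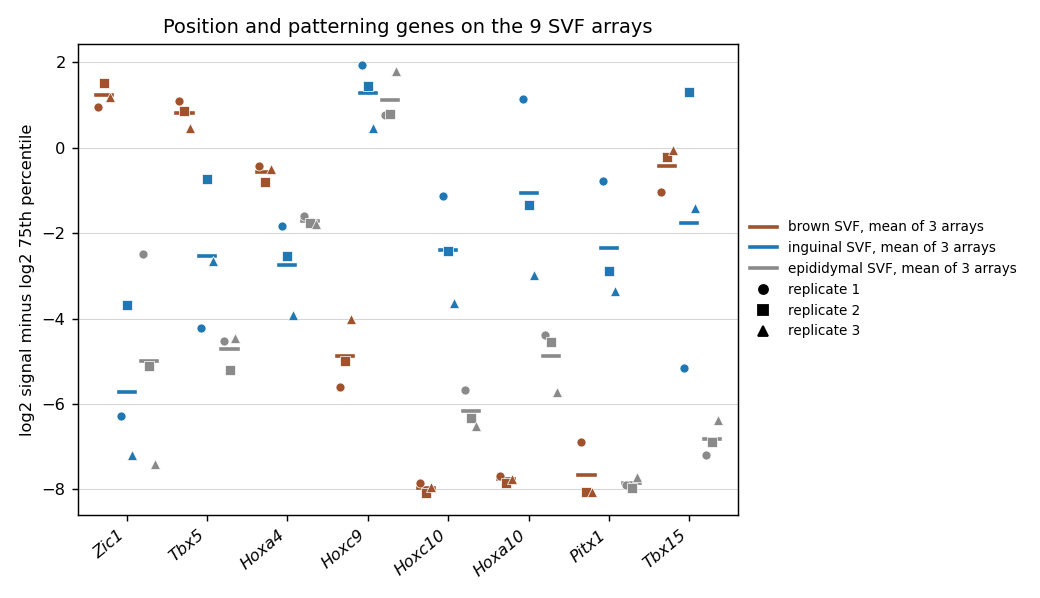
Levels of 8 position genes on the 3 brown, 3 inguinal and 3 epididymal SVF arrays (points, shaped by replicate; bars, mean of 3 arrays; y axis, log2 signal minus the log2 75th percentile). Hoxc9 is high in both white depots, whereas Hoxc10, Hoxa10 and Pitx1 are highest in inguinal SVF, and inguinal SVF 1 and 2 differ by over 6 units for Tbx15 (-5.15 and 1.30).

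Inguinal SVF was higher for a set of lectins known from tissue macrophages. Cd209b, a C-type lectin of the DC-SIGN family, had -1.86, -2.28 and -1.70 in brown and 2.57, 3.52 and 3.51 in inguinal SVF (-5.15 ± 0.95, adjusted p = 0.00993). Its relatives Cd209d (-4.38 ± 0.83, adjusted p = 0.0108) and Cd209g (-3.59 ± 0.79, adjusted p = 0.0264) followed, and so did Fcna, the serum lectin ficolin A (-4.18 ± 0.87, adjusted p = 0.0193). The 3 inguinal arrays lay within 1 unit of each other for Cd209b, while Ptprc ran from 0.61 to 5.57. Cd209b and Cd209d kept their calls whichever library was left out, while Fcna and Cd209g each kept theirs in only 2 of the 6 fits with 1 library left out. With slide as a block neither was called (adjusted p = 0.0879 and 0.159), and Cd209g was not called with the deposited matrix either (-2.03, adjusted p = 0.0868). The Cd209 genes are close relatives, and whether their probes cross-hybridise was not tested. Retnla, a secreted protein of alternatively activated macrophages, had 1.33, 0.51 and 1.03 in brown and 4.45, 5.70 and 3.47 in inguinal SVF (-3.58 ± 0.81, adjusted p = 0.0309), but kept its call in only 1 of the 6 fits with 1 library left out and lost it with slide as a block (adjusted p = 0.0875). The levels of Cd209b and Retnla in epididymal SVF were 1.75 to 4.36 and 3.90 to 6.52.

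The general macrophage genes showed no such difference. Adgre1, the F4/80 antigen, had 2.17, 1.60 and 2.83 in brown and 1.58, 2.95 and 1.31 in inguinal SVF, with overlapping groups (0.25 ± 0.75, adjusted p = 0.904), and the sign of this value turned with the library left out. None of the 16 macrophage genes tested was called, with a list median of -0.25. Nor was any gene called among 20 genes of adipocyte progenitors and fibroblasts (median -0.34). Pdgfra, a receptor that marks progenitors, had 1.99, 2.29 and 2.82 in brown and 3.48, 3.60 and 1.32 in inguinal SVF (-0.43 ± 0.59, adjusted p = 0.765), with the lowest value in the lymphocyte-rich library. Dpp4, a marker of progenitors of the tissue interstitium, did not overlap (0.62, 0.84 and 2.00 against 3.65, 3.89 and 2.27), but the difference of -2.12 ± 0.91 did not pass (adjusted p = 0.254).

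Lymphocyte lists were highest in inguinal SVF 3 and also higher in inguinal SVF 2 than in each brown array, whereas the mesothelial list was high in 1 library. The B cell list had medians of -2.41, -3.00 and -2.25 in brown and -3.55, 0.33 and 3.10 in inguinal SVF, and the T and NK cell list -1.54, -2.05 and -0.81 against -2.10, -0.06 and 2.74. No gene of either list was called. The median difference of the B cell list went from -2.42 to -4.02 without inguinal SVF 1, with 3 of 14 genes called then (0.658% of all genes were), and to -1.03 without inguinal SVF 3. The mesothelial list had a median difference of -3.15, and of -0.28 without inguinal SVF 1. Of the mesothelial and epithelial lists, with 12 genes tested in each, only Krt8 was called, against 0.492% of all genes higher in inguinal SVF. Krt8, a keratin of simple epithelia and mesothelium, had -4.24, -3.22 and -4.20 in brown against 3.28, -1.28 and -0.40 (-4.42 ± 1.01, adjusted p = 0.0321). Its call was lost without inguinal SVF 1 (-3.05, adjusted p = 0.0648) and with slide as a block (adjusted p = 0.134). Lists of neutrophil, mast cell, dendritic cell, lymph node stroma, skeletal muscle, cell cycle, immediate early and heat shock genes had no called member.

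**Figure D4:**
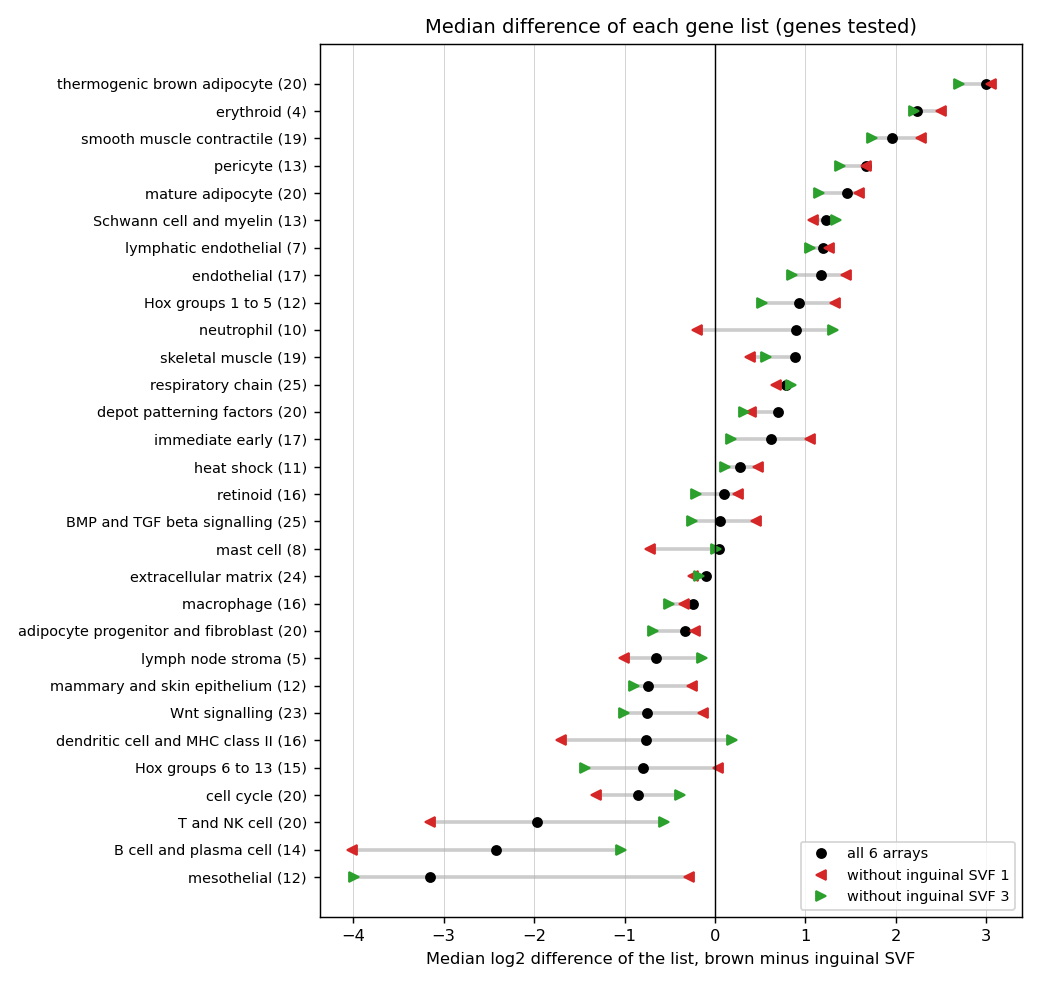
Median log2 difference (x axis, brown minus inguinal SVF) of each gene list with all 6 arrays and without inguinal SVF 1 or 3, with the number of genes tested in parentheses. The thermogenic, smooth muscle and pericyte lists stay above 1 in each setting, as do the erythroid, mature adipocyte, Schwann cell and lymphatic endothelial lists. The mesothelial list goes from -3.15 to -0.28 and the B cell list from -2.42 to -4.02 or -1.03.

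Calls in the signalling and matrix lists are set against 1.88% of all genes higher in brown and 0.492% higher in inguinal SVF. Of 25 genes of BMP and TGF beta signalling 3 were higher in brown SVF: Bmp6 (4.14, 2.97 and 3.23 against 1.64, 1.56 and 0.05, a difference of 2.36 ± 0.46 with adjusted p = 0.0123), Inhba, an activin subunit (2.50 ± 0.46, adjusted p = 0.00952), and Bmp5 (2.30 ± 0.38, adjusted p = 0.00477). Another Bmp5 probe gave -0.84 and was not above background on any of the 6 arrays. Of 24 matrix genes, Tnc alone was called, the gene of the adhesion-modulating glycoprotein tenascin C (1.30, -0.43 and 1.46 against -2.86, -2.66 and -2.48, a difference of 3.44 ± 0.45 with adjusted p = 0.000968), and it kept its call whichever library was left out. The sign of Bmp5 turned with normexp (-0.22), and Inhba was not called then (1.31, adjusted p = 0.0758). With repaired normexp Bmp5 was 0.94 and not called (adjusted p = 0.11), and Inhba was called (1.86, adjusted p = 0.00953). Of 23 Wnt genes the receptor gene Fzd8 was called (1.60 ± 0.40, adjusted p = 0.0497), at the edge of the threshold, and neither without inguinal SVF 1 or 3 nor with slide as a block (adjusted p = 0.0787). Of 16 retinoid genes Aldh1a2, an enzyme that makes retinoic acid, was higher in inguinal SVF (-3.50, -3.99 and -3.38 against 2.28, -0.66 and -1.43, a difference of -3.69 ± 0.82 with adjusted p = 0.0282). Its highest value was in the library labelled inguinal SVF 1, without which the adjusted p was 0.0559. With slide as a block it was 0.17.

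Genes were also ranked without regard to a list. The rule ordered genes called with all arrays by their smallest difference over the fits with and without inguinal SVF 1 and 3. It required no call in the fits without inguinal SVF 1 or 3. The leading genes higher in brown SVF were Ucp1, Cidea, Zic1, Slc27a2, Cox7a1, Cox8b, Cytl1, Plin5, Pln, Gpd1, Mmp13 and Cnn1. Cytl1, a small secreted protein, had 2.49, 2.27 and 2.74 in brown against -2.36, -1.67 and -0.96 (4.16 ± 0.70, adjusted p = 0.00586), and with slide as a block it was not called (4.13, adjusted p = 0.0756). Mmp13, a collagenase, had -2.51, -3.01 and -1.79 against -6.37, -5.42 and -7.42 (3.97 ± 0.65, adjusted p = 0.00504), with 1 inguinal array above background. Plin5, a droplet protein of oxidative tissues, differed by 4.13 ± 0.71 (adjusted p = 0.00722). Not well above background on any inguinal array were Myl2, a myosin light chain of heart and slow muscle (at least 10.5-fold higher in brown), Rit2 (at least 4.34-fold), Hpcal4 (at least 3.66-fold), Sim2 (at least 2.80-fold), Otop1, a proton channel (at least 2.43-fold), and Mmd2 (at least 2.25-fold). The calls of Sim2, Otop1 and Mmd2 were lost without inguinal SVF 3, and with normexp the differences of Rit2, Hpcal4, Sim2, Otop1, Mmd2 and Mmp13 had the opposite sign. With repaired normexp none of these signs turned. Mmp13 was then called (1.32, adjusted p = 0.0326), while Rit2, Hpcal4, Sim2, Otop1 and Mmd2 were not. With slide as a block Myl2 (adjusted p = 0.185), Sim2, Otop1 and Mmd2 were not called, and in the deposited matrix the log2 differences of Myl2, Rit2, Hpcal4, Sim2, Otop1 and Mmd2 were 2.07, 1.29, 1.37, 0.91, 1.11 and 0.83, below these bounds. Myl2 came without a called gene among 19 of the skeletal muscle list, whose summed level was highest in inguinal SVF 2 (6.44, against 2.25 to 5.20 in the other arrays).

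Toward inguinal SVF the leading genes beside Hoxc9 and the lectins were Wfdc2, an inhibitor-like secreted protein, Extl1, Spns3, Plac8, Krt8 and Ecrg4. Wfdc2 had -4.97, -5.63 and -5.09 in brown against -0.80, -0.70 and -2.77 (-3.81 ± 0.69, adjusted p = 0.00935) and kept its call whichever library was left out. Plac8 had 1.29, 1.62 and 1.70 against 4.17, 5.15 and 5.09 (-3.26 ± 0.78, adjusted p = 0.0416) and lost its call without inguinal SVF 3 (adjusted p = 0.111). For Extl1 (-3.78 ± 0.69) another probe gave 0.01. Ecrg4, a secreted protein of epithelia (-3.94 ± 0.88), was not called without inguinal SVF 1 (adjusted p = 0.0676), nor Spns3 (-3.76 ± 0.73) without inguinal SVF 3 (adjusted p = 0.0586). Apof, an apolipoprotein, had -3.59, -1.60 and -3.27 in inguinal SVF and no brown array above background (at least 8.03-fold on the scale used here, adjusted p = 0.000775). Stra6l, a receptor for retinol-binding protein (at least 8.34-fold, adjusted p = 0.000553), and Ces2e, a carboxylesterase (at least 5.41-fold, adjusted p = 0.00363), had the same pattern. In the deposited matrix the log2 differences of Apof, Stra6l and Ces2e were -1.61, -1.41 and -1.15, which is below these bounds. Ecrg4 lost its call with slide as a block (adjusted p = 0.301) and Extl1 as the mean of its probes (adjusted p = 0.0712). Of the 36 genes chosen by this rule, 24 kept their calls whichever library was left out: 11 of the 12 and 3 of the 6 below background for brown, and 4 of the 12 and 6 of the 6 for inguinal SVF. On the first scan day alone 6 of the 36 were called.

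Whether the depot difference itself differed between the fractions was tested with the adipocyte arrays. The difference in the SVF exceeded that in the adipocyte fraction for 140 genes and was below it for 25 (165 of 19291, 0.855%), or 0.726% and 0.13% of the genes. The count was 97 without brown SVF 1, 84 without brown SVF 3 and 338 without inguinal SVF 2. Of the 19 contractile genes tested, 10 had a larger difference in the SVF, 9 of them among the 11 called above. Cnn1 was lower in brown than in inguinal adipocytes by 3.07, so that the fractions differed by 6.67 (adjusted p = 0.000933). Acta2 (-3.04 in the adipocyte fraction, 5.87 between fractions, adjusted p = 0.000373) and Myh11 (-2.11 and 5.10, adjusted p = 0.000124) did the same. Several lists of other cell types also had negative median differences between brown and inguinal adipocytes: -3.49 for T and NK cells, -2.97 for macrophages, -2.78 for B cells, -2.03 for progenitors and fibroblasts and -1.93 for matrix genes, beside -0.97 for the contractile list and 0.15 for all genes. The endothelial (0.91), erythroid (0.79) and mesothelial (0.50) lists had positive ones. The part of such other cell types in the interaction was not tested. For no thermogenic gene of the 20 was the SVF difference called as other than the adipocyte difference: Ucp1 differed by 9.60 in the SVF and by 4.91 between the adipocyte fractions (interaction adjusted p = 0.369), and Hoxc9 by -6.15 and -8.06 (adjusted p = 0.181). The inguinal adipocyte arrays were each on a slide of their own and read with an older software version than the SVF and the brown adipocyte arrays, so that these cannot be told apart from the fraction in this test.

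**Figure D5:**
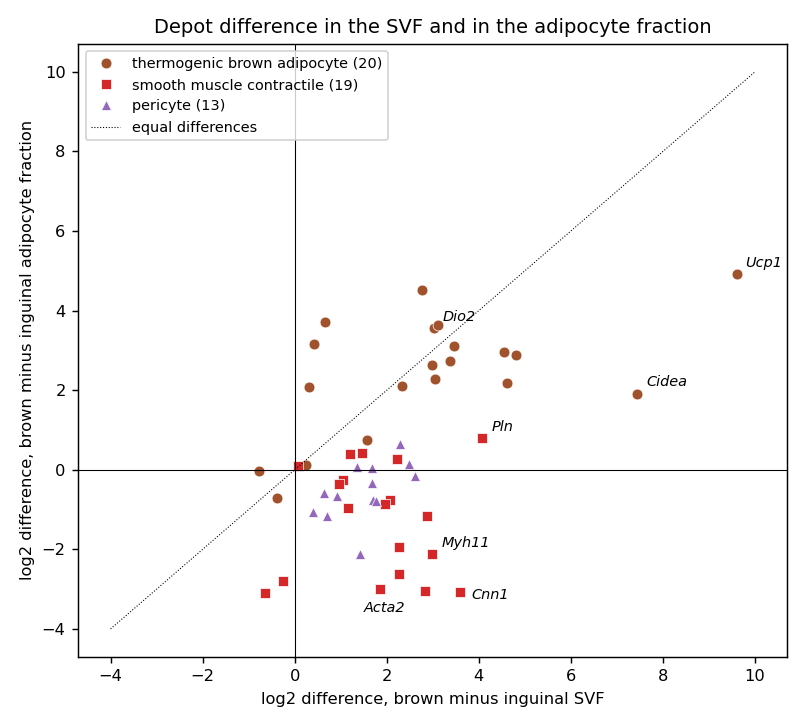
Depot difference in the SVF (x axis, log2 brown minus inguinal) against the same difference in the adipocyte fraction (y axis) for the thermogenic, smooth muscle and pericyte lists, 1 point per gene; the dotted line marks equal differences. Acta2, Cnn1 and Myh11 lie to the right of 0 and below it, with a positive difference in the SVF and a negative one in the adipocyte fraction, while Ucp1 and Cidea are positive in both.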

How the data were processed

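RNA was hybridised to 1-colour Agilent arrays of 43379 gene spots. The authors deposited scanner files made with Feature Extraction 10.5.1.1 for the SVF and brown adipocyte arrays, and 9.5.3.1 for the inguinal and epididymal adipocytes, per the file headers. The deposited intensity values had their background subtracted by that software, per the file headers. The authors also deposited log2 values of all arrays in a matrix, used as an alternative. Each of its 18 columns best matched an array of its own group, but only 4 best matched the array of the same replicate number. Whether replicate numbers are the same in the matrix and the scanner files was not tested further. From the intensities, log2 signal minus the log2 75th percentile of each array was computed here, outlier spots were left out, and 28595 of 41174 probes were kept as well above background on all 3 arrays of a group. The probe with the highest mean stood for a gene, which gave 19291 genes, named through RefSeq where an accession or symbol matched. limma 3.58.1 in R 4.3.3 was fitted to the 6 groups of 18 arrays, with p-values adjusted over all genes by Benjamini-Hochberg. The fit was also tested on simulated data of 19291 genes. There it called 183 unchanged genes when each group kept its own measured spread, against 14 when spread was equal. That spread came from 3 arrays per group, so the simulation does not give the number of false calls. Counts called here may include more false calls than the threshold states. Named genes had adjusted p under 0.05, no overlap between depots and detection on each array of the higher depot. For either direction the 12 with the largest smallest difference over the fits with and without inguinal SVF 1 or 3 were taken, up to 6 not above background in the lower group, up to 4 called genes of each list, and a set followed whatever its result. Genes like Cnn1 were not ranked, since the depots form separate clusters over 6 arrays. The members and lists were chosen with earlier results of these data known. Same-numbered replicates did not pair. Alternatives covered normalization, background correction, the filter on dim probes, blocks and each library left out. For the depot difference in the SVF, the slide and scan day blocks were fitted to the SVF and brown adipocyte arrays alone.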

Additional observations from a re-analysis of the deposited data

Results flagged for a closer look

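For some of the genes named above, the depot difference in the SVF was tested to differ from the depot difference in the adipocyte fraction (limma interaction, Benjamini-Hochberg adjusted p under 0.05 over all genes). The SVF difference minus the adipocyte difference was 8.56 for Cytl1, 6.67 for Cnn1, 5.87 for Acta2, 5.69 for Inhba and 5.10 for Myh11. These 5 genes were higher in brown SVF and had a negative difference (-4.40 to -2.11) between brown and inguinal adipocytes. It was 4.23 for Mmp13, 4.05 for Myocd, 3.56 for Mal, 3.26 for Foxc2, 2.77 for Cspg4, 2.65 for Gfra3, 2.46 for Notch3 and 2.33 for Heyl. Toward inguinal SVF it was -5.87 for Apof and -4.35 for Pitx1, whose adipocyte differences were 0.74 and -0.98. The inguinal adipocyte arrays had slides, scan days and a software version of their own, which cannot be told apart from the fraction.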

How the results depend on the processing

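The count of 457 genes was 298 with no filter on dim probes, 1593 with normexp, 741 with scan day as a block, 1572 with array weights, 2 with only the arrays compared, 43 with only scan day 1 and 64 without inguinal SVF 1 and 3 together, and 175 to 773 with 1 library left out. The median of all genes moved to -0.14 with no filter, -0.34 with normexp and -0.11 with normexp after 22 probes far below background were left out, an alternative chosen after seeing the data, as was scan day 1 alone. The count of 165 genes for the fractions was 50 with normexp, 98 with that repaired normexp, 70 with only the 12 arrays compared, 3305 with array weights, 107 without inguinal SVF 1 and 3 together, and 84 to 338 with 1 library left out. The causes were not tested, beyond the fewer samples of the subsets. With the replicate number as a block the counts were 505 and 159, and 3 of 83 called genes named here lost their call; the numbers correlated at -0.05, 0.20 and 0.19 and do not pair the samples. Of those 83, 75 kept their call with quantile normalization, 77 with the deposited matrix values, 56 with slide as a block and 15 without inguinal SVF 1 and 3 together. With normexp 57 kept it and 10 changed sign, against 69 and 0 with repaired normexp.

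Signs turned with normexp for Bmp5 (-0.22), Flt4 (-0.068), Foxc2 (-0.29), Hpcal4 (-0.49), Kcnmb1 (-1.15), Mmd2 (-0.88), Mmp13 (-0.043), Otop1 (-0.73), Pdgfra (0.025), Rit2 (-0.44), Sim2 (-0.85) and Tbx15 (-0.19). Adgre1 was -0.33 with array weights, -0.38 on scan day 1, -0.75 without inguinal SVF 1 and 3, and, with 1 library left out, between -0.064 (inguinal SVF 3) and 0.75 (inguinal SVF 2), with -0.062 without brown SVF 3. Cd3e was 0.18 on scan day 1 and ran from -1.79 to 0.086 with 1 library left out (inguinal SVF 1 and 3), Ddx3y ran from -0.17 to 3.85 (inguinal SVF 1 and 3), and Mbp was 0.48 as the mean of its probes. Msln was 2.92 with array weights, 0.91 with the slide block, 4.07 without inguinal SVF 1 and 3 and, with 1 library left out, -3.01 to 3.71 (inguinal SVF 2 and 1). Pdgfra was 0.46 with the slide block, and Tbx15 was -0.91 with array weights, -1.74 without inguinal SVF 1 and 3 and, with 1 library left out, -0.39 to 2.84 (inguinal SVF 1 and 2). Signal over background limits the low genes, and 3 arrays per group limit the precision of all.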
